A study of Mus musculus with 18 samples.

Results

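The TNF superfamily consists of ligands, mostly trimeric proteins held on the cell surface or shed from it, and the TNF receptor superfamily consists of the proteins that bind them. The genes described here were the protein-coding genes of the deposited count table whose symbol begins with Tnfsf or Tnfrsf followed by a digit. There were 31 such genes among the 55385 in the table, 11 ligands and 20 receptors. Relatives whose symbols do not have this form, such as Tnf, Fas and Cd40, were counted apart as listed genes.

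The samples were kidneys of adult mice, 6 in each of 3 groups, with 3 males and 3 females per group, aged 17.1 to 18.0 weeks and with no treatment listed. The wild-type strain was C57BL/6J, and the other 2 groups were Dp16 and Dp16 2xIFNRs. Dp16 mice carry a duplication of the part of mouse chromosome 16 that corresponds to human chromosome 21, and serve as a model of trisomy 21. In Dp16 2xIFNRs the duplication is kept, but the cluster of interferon receptor genes is brought back to the normal 2 copies, so the Dp16 duplication was present in both groups compared with wild-type. The duplication models a part of trisomy 21 only, since genes of human chromosome 21 that lie elsewhere in the mouse genome are not included in it. Polyadenylated RNA of the whole organ was measured, so that fewer cells of a type and less RNA per cell cannot be told apart in any value below.

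Library totals ranged from 42157790 to 57814587 counts, and mitochondrial genes took 6.34% to 10.88% of each library. No marker gene of the kidney segments was at 0 in all libraries, and proximal tubule markers summed to between 20391 and 45624 CPM (normalised counts per 1000000 counts) in every library. Between Dp16 2xIFNRs and Dp16, 3 genes passed the test, Ifngr2, Il10rb and Ifnar2, all 3 in the interferon receptor cluster and lower in Dp16 2xIFNRs. None of the 31 family genes lay in the duplicated segment, taken as the stretch from Lipi to Zbtb21 on chromosome 16 (75540514 to 97962622 in GRCm38). Tnfrsf17, the family gene on chromosome 16, lay outside it, at 11313812 to 11320074. Of the others, 9 were on chromosome 4 and 4 on chromosome 17.

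As background, ligand binding gathers the receptors into clusters, and the receptors then take 1 of several courses. Receptors with a death domain, such as Tnfrsf1a, Tnfrsf10b and Tnfrsf21, can recruit adaptors that lead to apoptosis or to NF-kappaB. Receptors that bind TRAF proteins, such as Tnfrsf1b and Tnfrsf11a, act mainly through NF-kappaB and kinase cascades, and decoy receptors such as Tnfrsf11b bind a ligand without passing on the signal. In the kidney the family is best known from studies of tubule cell death, inflammation and the survival of B cells and plasma cells.

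The 4 genes that passed the test against wild-type in at least 1 of the duplication groups were Tnfsf10 (TRAIL), the ligand of the death receptor Tnfrsf10b, Tnfsf13b (BAFF), a survival factor for B cells, Tnfrsf1b (TNFR2), the TRAF-binding receptor for TNF, and Tnfrsf21, a death domain receptor. Their promoters are shown because these are the genes of the family that passed between genotypes. Each window runs 5′ to 3′ on the gene's strand, from 250 bases before to 50 bases after the RefSeq start (GRCm38.p6). The Tnfsf10 window covers chr3:27316827-27317126 on the plus strand, and its RefSeq start lay 49 bases from the start of the gene in GENCODE. The Tnfsf13b window covers chr8:10006217-10006516 on the plus strand. The Tnfrsf1b window covers chr4:145246821-145247120 on the minus strand. The Tnfrsf21 window covers chr17:43016305-43016604 on the plus strand.
Tnfsf10: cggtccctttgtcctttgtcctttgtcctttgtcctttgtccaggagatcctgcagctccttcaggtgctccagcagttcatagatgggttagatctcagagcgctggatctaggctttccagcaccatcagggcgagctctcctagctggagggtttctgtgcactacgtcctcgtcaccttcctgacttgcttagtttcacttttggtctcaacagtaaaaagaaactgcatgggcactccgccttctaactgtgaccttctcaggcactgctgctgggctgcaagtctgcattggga
Tnfsf13b: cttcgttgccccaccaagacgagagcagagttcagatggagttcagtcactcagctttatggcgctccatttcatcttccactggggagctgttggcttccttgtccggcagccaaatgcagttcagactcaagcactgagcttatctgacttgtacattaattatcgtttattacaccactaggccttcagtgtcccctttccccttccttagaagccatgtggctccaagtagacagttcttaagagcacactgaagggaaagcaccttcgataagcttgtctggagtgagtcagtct
Tnfrsf1b: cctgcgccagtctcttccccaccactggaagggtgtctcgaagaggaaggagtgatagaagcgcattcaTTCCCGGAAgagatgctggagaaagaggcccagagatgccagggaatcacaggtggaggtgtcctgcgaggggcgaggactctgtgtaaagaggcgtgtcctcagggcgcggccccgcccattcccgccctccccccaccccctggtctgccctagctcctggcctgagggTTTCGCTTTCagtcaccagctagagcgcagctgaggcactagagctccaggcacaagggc
Tnfrsf21: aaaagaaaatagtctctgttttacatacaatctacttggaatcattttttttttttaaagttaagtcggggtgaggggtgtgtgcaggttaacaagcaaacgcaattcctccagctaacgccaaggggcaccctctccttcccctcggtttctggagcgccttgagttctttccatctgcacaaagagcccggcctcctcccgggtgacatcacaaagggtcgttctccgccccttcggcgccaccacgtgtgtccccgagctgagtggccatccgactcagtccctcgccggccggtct
Capitals mark matches to motifs that were searched on both strands. The interferon-stimulated response element was searched as GAAA, any 2 bases and GAAA, which 3.44% of 32851 promoter windows of this length held. The gamma-activated site was searched as TTC, any 3 bases and GAA, held by 8.3% of the windows. The NF-kappaB site was searched as GGG, then A or G, any 2 bases, 2 bases that are each C or T, and CC. It was held by 8.46% of them. Tnfrsf1b held TTCCCGGAA, beginning at position -181 from its start, and TTTCGCTTTC, the response element read on the other strand, beginning at position -10. The Tnfsf10, Tnfsf13b and Tnfrsf21 windows held no match to these letters. RefSeq gave 2 windows for Tnfsf13b, and only that nearest the GENCODE start was searched and is shown. These matches are letters in a window and were not tested as binding sites.

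The family spanned a wide range of levels. By the authors' RPKM, which scale counts by gene length, the highest were Tnfrsf21 (DR6), a death domain receptor, with a mean of 92.5 over all 18 libraries, and Tnfrsf1a (TNFR1), the other receptor for TNF, with 38.1. The ligand Tnfsf12 (TWEAK) followed at 13.8 RPKM and its receptor Tnfrsf12a (Fn14) at 10.7 RPKM. Tnfsf10 had a mean of 7.77 RPKM, above 65.1% of all genes tested. Of the 31 genes, 23 had enough counts to be tested, 8 of the 11 ligands and 15 of the 20 receptors. The 4 lowest of these were Tnfsf8 with 0.0405 RPKM, Tnfrsf25 with 0.0987, Tnfsf14 with 0.182 and Tnfrsf18 with 0.215. The 8 genes below the filter were the ligands Tnfsf4, Tnfsf11 and Tnfsf18 and the receptors Tnfrsf4, Tnfrsf8, Tnfrsf9, Tnfrsf13c and Tnfrsf17. Tnfrsf13c, the main BAFF receptor of B cells, had 151 counts over all 18 libraries, and Tnfrsf17, the plasma cell receptor BCMA, had 50. Tnfsf11 (RANKL), the ligand of Tnfrsf11a, had 41 counts, and Tnfsf4 and Tnfsf18 had 3 counts each. The filter keeps a gene when enough of the 18 libraries, whatever their group, reach a minimum level, and the smallest group sets how many are needed. The 23 tested genes are therefore not a sample of the 31.

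**Figure D1:**
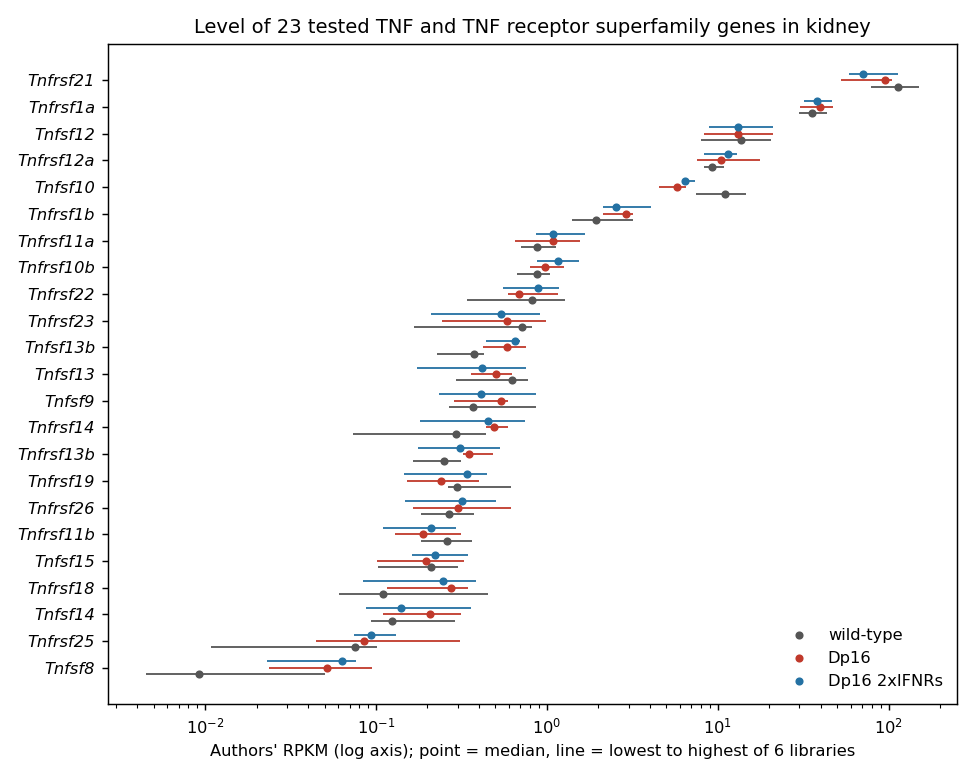
Level of the 23 tested genes by group. The x axis is the authors' RPKM on a log scale, points are medians and lines run from the lowest to the highest of 6 libraries. Tnfrsf21 and Tnfrsf1a lie at the top, with means of 92.5 and 38.1, and Tnfsf8 at the bottom with 0.0405.

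The plot of levels shows that for most of the family the lines of the 3 groups overlap over most of their length. In Dp16 against wild-type, 3 of the 23 genes passed the test (13%), Tnfsf10 lower and Tnfsf13b and Tnfrsf1b higher. Of all 17575 genes tested, 4.23% passed, 3.17% higher and 1.06% lower. In Dp16 2xIFNRs against wild-type, 4 of 23 passed (17.4%), Tnfsf10 and Tnfrsf21 lower and Tnfsf13b and Tnfrsf1b higher. Of all genes tested in that comparison, 4.79% passed, 3.17% higher and 1.61% lower. The median log2 fold change of the 23 genes was 0.19 in both comparisons, beside -0.01 and 0.01 for all genes. In each comparison 15 genes were above 0 and 8 below. Both comparisons use the same 6 wild-type libraries, so their results are not independent of each other. All adjusted p values were from edgeR's quasi-likelihood test with Benjamini-Hochberg adjustment over all 17575 genes.

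**Figure D2:**
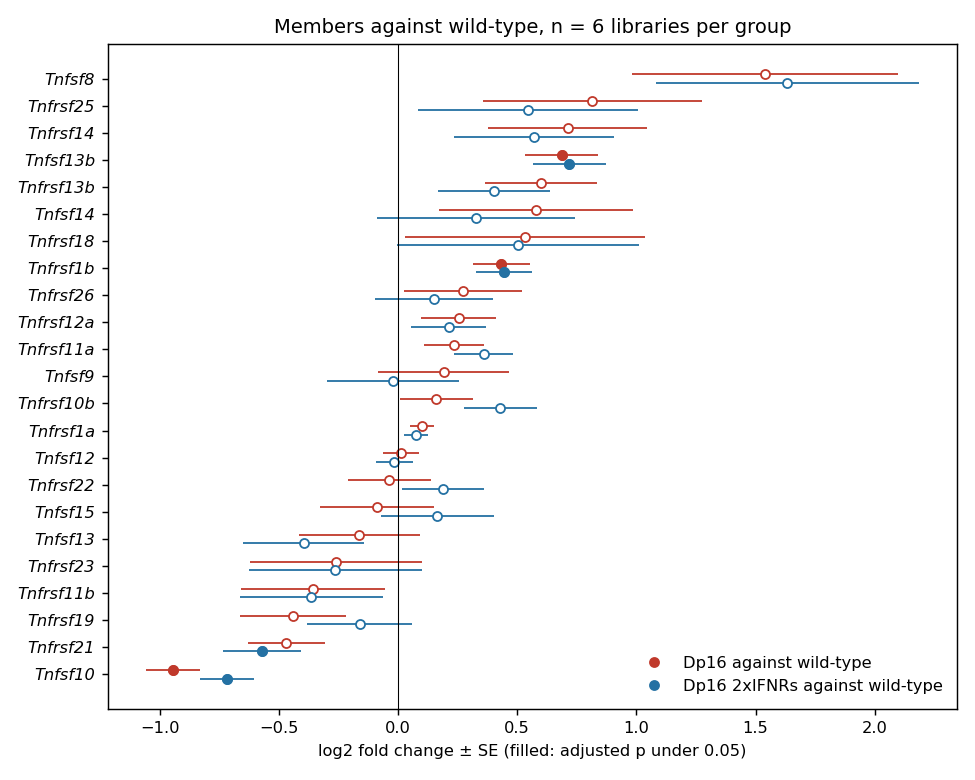
Log2 fold change with its SE for the 23 tested genes against wild-type, 6 libraries per group, with filled points where the edgeR adjusted p was under 0.05. Tnfsf10 lies lowest among the genes that passed, at -0.94 and -0.72, and Tnfsf13b highest, at 0.69 and 0.72.

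Among the ligands, Tnfsf10 (chromosome 3, 27317028 to 27342427, plus strand) had the smallest p in both comparisons. Its lowest, median and highest levels were 38.3, 59.5 and 81.4 CPM in wild-type. In Dp16 they were 23.1, 29.7 and 35.5 CPM, and in Dp16 2xIFNRs 30.8, 33.4 and 41.4 CPM. Every Dp16 library lay below every wild-type library, while the highest Dp16 2xIFNRs library lay above the lowest wild-type library. Tnfsf10 and Tnfsf13b were the 2 genes (8.7%) whose Dp16 and wild-type libraries did not overlap, where 1.3% of all genes had none. Tnfsf10 was 1.92-fold lower in Dp16 (log2 fold change -0.94 ± 0.11 SE, edgeR adjusted p = 6.56e-05). It was 1.65-fold lower in Dp16 2xIFNRs (-0.72 ± 0.11, edgeR adjusted p = 0.00108). Leaving out each of the 18 libraries in turn kept both calls, with log2 fold changes of -1.01 to -0.89 in Dp16 and -0.79 to -0.65 in Dp16 2xIFNRs. None of the 6 other tested genes lying wholly or partly within 1 Mb of Tnfsf10, looked at after its values were seen, passed in any comparison of genotypes. Nor did the 9 near Tnfsf13b or the 7 near Tnfrsf1b. Of the 10 near Tnfrsf21, Pla2g7 alone passed. It was higher by 0.48 ± 0.08 in Dp16 and 0.47 ± 0.08 in Dp16 2xIFNRs (edgeR adjusted p = 0.00223 and 0.0026).

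The wild-type values of Tnfsf10 lay apart by sex. Wild-type females had 38.3, 41.5 and 41.9 CPM, and wild-type males 77.1, 77.5 and 81.4 CPM. Dp16 females had 23.1, 27.8 and 29.4 CPM, and Dp16 males 30.0, 33.7 and 35.5 CPM. Dp16 2xIFNRs females had 30.8, 31.8 and 33.4 CPM, and Dp16 2xIFNRs males 33.3, 37.8 and 41.4 CPM. Within each sex, all 3 libraries of both duplication groups lay below the 3 of wild-type. Males and females did not overlap in wild-type or Dp16, and in Dp16 2xIFNRs the highest female lay just above the lowest male. The mean of wild-type males was 78.7 ± 2.38 CPM (SD, n = 3), 1.94 times the 40.6 ± 1.99 CPM of wild-type females. The same ratio was 1.24 in Dp16 (33.0 ± 2.81 against 26.7 ± 3.28 CPM) and 1.17 in Dp16 2xIFNRs (37.5 ± 4.05 against 32.0 ± 1.30 CPM).

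The difference between the sexes in the genotype effect on Tnfsf10 was -0.65 ± 0.14 on the log2 scale, male minus female, in Dp16 (unadjusted p = 0.000202, edgeR adjusted p = 0.166). In Dp16 2xIFNRs it was -0.73 ± 0.14 (unadjusted p = 6.02e-05, edgeR adjusted p = 0.106). It did not pass over all genes, and none of the 23 genes passed this test, where 0.0171% of all genes did in Dp16 and 0.00569% in Dp16 2xIFNRs. At an unadjusted p under 0.05, Tnfsf10 was the only 1 of the 23 in each, where 7.85% and 3.53% of all genes were. DESeq2 called it in both, with adjusted p of 0.00943 in Dp16 and 0.00205 in Dp16 2xIFNRs. Without Dp16 replicate 3 edgeR also called both, at -0.76 (adjusted p = 0.0362) and -0.73 (adjusted p = 0.0432). That library had the lowest Tnfsf10 level of all 18 (23.1 CPM, next 27.8). It also had the highest summed markers of T cells (27.9 CPM, next 25.2) and B cells (13.4 CPM, next 8.32) of all 18. The part of these markers in the test was not tested. With no filter on low counts edgeR called it in Dp16 2xIFNRs (adjusted p = 0.0151). It stayed uncalled in 24 of the 26 alternative fits in Dp16 and in 23 of 26 in Dp16 2xIFNRs. Among the fits that each left out 1 library, the edgeR adjusted p reached 0.363 and 0.351. In fits of 1 sex alone, made after the values were seen, males fell by 1.27 in Dp16 and by 1.09 in Dp16 2xIFNRs on the log2 scale (edgeR adjusted p = 0.000491 and 0.000799). Females fell by 0.61 in Dp16 (edgeR adjusted p = 0.0445), and in Dp16 2xIFNRs their change of -0.35 did not pass (edgeR adjusted p = 0.295).

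**Figure D3:**
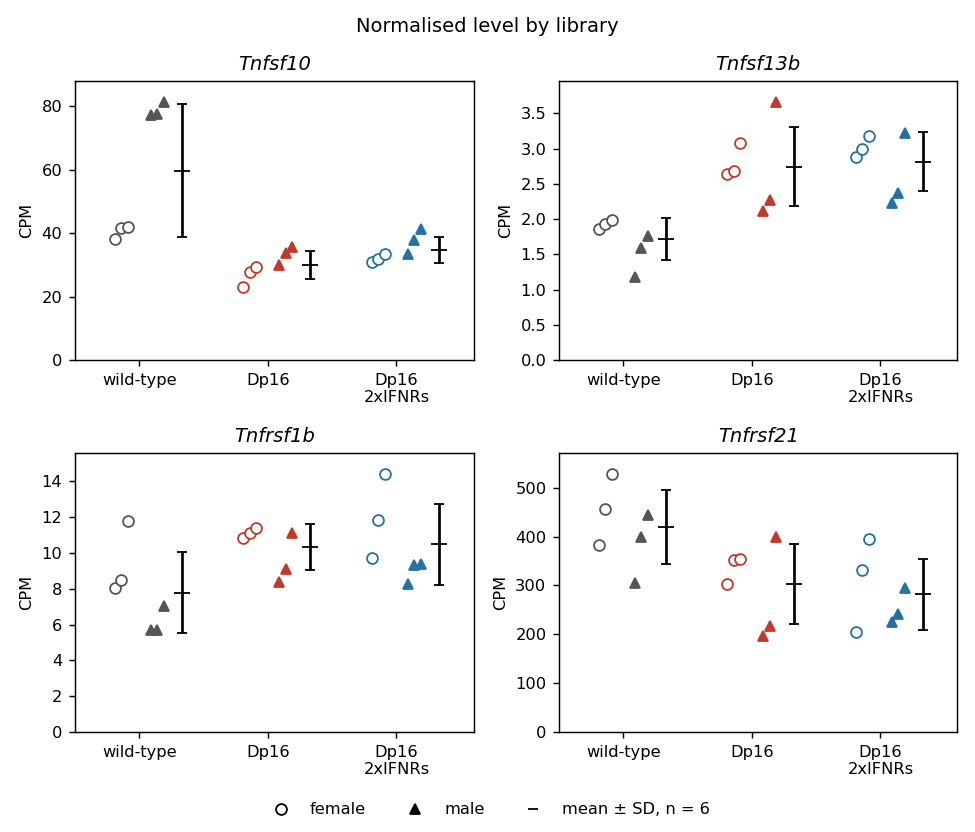
CPM of Tnfsf10, Tnfsf13b, Tnfrsf1b and Tnfrsf21 in each library, 3 females (open circles) and 3 males (filled triangles) per group, with the mean and SD of 6 libraries beside them. The 3 wild-type males of Tnfsf10 lie at 77.1 to 81.4 CPM, apart from all other libraries, and the Tnfsf13b libraries of both duplication groups lie above those of wild-type.

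Tnfsf13b (chromosome 8, 10006467 to 10039072, plus strand) was higher in both duplication groups. Its lowest, median and highest levels were 1.17, 1.81 and 1.98 CPM in wild-type. They were 2.12, 2.66 and 3.67 CPM in Dp16 and 2.23, 2.93 and 3.22 CPM in Dp16 2xIFNRs. No library of either duplication group overlapped wild-type, as the plot by library shows. In Dp16 2xIFNRs against wild-type it was the only 1 of the 23 (4.35%) with no overlap, where 1.56% of all genes had none. Tnfsf13b rose 1.61-fold in Dp16 (log2 fold change 0.69 ± 0.15, edgeR adjusted p = 0.0140). It rose 1.64-fold in Dp16 2xIFNRs (0.72 ± 0.15, edgeR adjusted p = 0.00896). Within each sex its groups also did not overlap, as for Tnfsf10, and these were 2 of the 23 genes (8.7%) beside 3.41% of all genes in Dp16 and 4.85% in Dp16 2xIFNRs. The call was lost with the Dp16 and wild-type libraries fitted alone (0.68, edgeR adjusted p = 0.0510), and in fits of 1 sex alone, where adjusted p reached 0.278.

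The other 6 tested ligands did not pass in either comparison. Tnfsf8 (CD30L), a ligand of activated lymphocytes, had lowest, median and highest levels of 0.0184, 0.0358 and 0.206 CPM in wild-type. They were 0.0929, 0.187 and 0.349 CPM in Dp16 and 0.0899, 0.239 and 0.295 CPM in Dp16 2xIFNRs. Its 1 high wild-type library, replicate 4, was above the median of Dp16. Its log2 fold changes were 1.54 ± 0.56 in Dp16 (edgeR adjusted p = 0.131) and 1.63 ± 0.55 in Dp16 2xIFNRs (edgeR adjusted p = 0.103). Without wild-type replicate 4 they were 2.32 and 2.43, and both passed (edgeR adjusted p = 0.0222 and 0.0152). That fit dropped the highest wild-type library. Tnfsf8 met the count filter mostly through libraries of the duplication groups, where it was higher, so its p values are not separate from the filter. In each comparison the other 28 of 29 alternative fits did not call Tnfsf8, which had 1 to 17 counts per library. Tnfsf12 was at 0.01 ± 0.08 and -0.02 ± 0.08. The remaining ligands, Tnfsf9, Tnfsf13 (APRIL), Tnfsf14 (LIGHT) and Tnfsf15 (TL1A), had log2 fold changes between -0.40 and 0.58 with edgeR adjusted p of at least 0.442. Tnfsf12 and Tnfsf13 overlap the readthrough gene Tnfsfm13, and reads that fit more than 1 of the 3 could be left out or assigned to another in counting.

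Of the death domain receptors, Tnfrsf21 (chromosome 17, 43016555 to 43089189, plus strand) had the lowest fold change. Its lowest, median and highest levels were 304, 421 and 528 CPM in wild-type. They were 196, 328 and 399 CPM in Dp16 and 204, 269 and 395 CPM in Dp16 2xIFNRs. The groups overlapped, although all 6 libraries of each duplication group lay below the wild-type median. Tnfrsf21 fell by 0.57 ± 0.16 on the log2 scale in Dp16 2xIFNRs, 1.49-fold (edgeR adjusted p = 0.0495). In Dp16 its log2 fold change was -0.47 ± 0.16, 1.38-fold lower, and did not pass (edgeR adjusted p = 0.115). The Dp16 2xIFNRs call was at the edge of the threshold. It held in 7 of the 18 fits that each left out 1 library, those without wild-type replicate 3 or 6, Dp16 2xIFNRs replicate 3 or 4, or Dp16 replicate 1, 5 or 6, and the log2 fold change in all 18 was -0.66 to -0.47 (highest edgeR adjusted p = 0.115). In Dp16 the gene passed without Dp16 replicate 5 (-0.63, edgeR adjusted p = 0.0242) and with no filter on low counts.

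Tnfrsf1a, which starts both the NF-kappaB and the cell death response to TNF, did not pass. Its log2 fold changes were 0.10 ± 0.05 in Dp16 and 0.07 ± 0.05 in Dp16 2xIFNRs (edgeR adjusted p = 0.320 and 0.474). Tnfrsf10b (DR5), the mouse receptor for TRAIL, was at 0.16 ± 0.15 in Dp16 and 0.43 ± 0.15 in Dp16 2xIFNRs, and did not pass (edgeR adjusted p = 0.675 and 0.123). Its lowest, median and highest levels were 2.26, 2.85 and 3.20 CPM in wild-type, 2.48, 3.14 and 3.76 CPM in Dp16, and 2.79, 3.56 and 5.25 CPM in Dp16 2xIFNRs. Its 3 groups overlapped. Tnfrsf25 (DR3), the receptor for Tnfsf15, was at 0.82 ± 0.46 and 0.54 ± 0.46 (edgeR adjusted p = 0.397 and 0.581).

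Of the TRAF-binding receptors, Tnfrsf1b (chromosome 4, 145213463 to 145246870, minus strand) was higher in both duplication groups. Its lowest, median and highest levels were 5.67, 7.51 and 11.8 CPM in wild-type. They were 8.36, 10.95 and 11.4 CPM in Dp16 and 8.25, 9.53 and 14.4 CPM in Dp16 2xIFNRs. One wild-type female, replicate 5, at 11.8 CPM lay above every Dp16 library. That library also had the highest sum of adrenal gland markers (81.5 CPM, next 10.1), and the part of this in its Tnfrsf1b value was not tested. All 6 libraries of each duplication group lay above the wild-type median. How many of all genes had all 6 libraries past a median was not counted, here or for the other genes so described. Tnfrsf1b rose 1.35-fold in Dp16 (log2 fold change 0.43 ± 0.12, edgeR adjusted p = 0.0445). It rose 1.36-fold in Dp16 2xIFNRs (0.44 ± 0.12, edgeR adjusted p = 0.0367). Among the 18 fits that each left out 1 library, the Dp16 call held in 4, those without wild-type replicate 5, Dp16 replicate 2, or Dp16 2xIFNRs replicate 4 or 5, with log2 fold changes of 0.35 to 0.54 in all 18 (highest edgeR adjusted p = 0.116). The Dp16 2xIFNRs call held in 9, those without any 1 Dp16 library, wild-type replicate 5, or Dp16 2xIFNRs replicate 4 or 6, with 0.38 to 0.55 in all 18 (highest edgeR adjusted p = 0.1005). Both calls were also lost without the sex term (edgeR adjusted p = 0.360 and 0.304), with age as a term (0.0574 and 0.0503) and with the 2 groups alone (0.0775 and 0.0566).

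The other 6 tested TRAF-binding receptors did not pass. Tnfrsf13b (TACI), a receptor for BAFF and APRIL on B cells, was at 0.60 ± 0.23 in Dp16 and 0.40 ± 0.24 in Dp16 2xIFNRs (edgeR adjusted p = 0.171 and 0.391). Tnfrsf14 (HVEM), the receptor for Tnfsf14, was at 0.71 ± 0.33 and 0.57 ± 0.34 (edgeR adjusted p = 0.281 and 0.393). Tnfrsf11a (RANK) was at 0.23 ± 0.12 and 0.36 ± 0.12 (edgeR adjusted p = 0.359 and 0.1105). Tnfrsf12a, the receptor for TWEAK, was at 0.25 ± 0.16 and 0.21 ± 0.16. Tnfrsf18 (GITR) and Tnfrsf19 (TROY) had edgeR adjusted p of at least 0.329 in both. The 3 decoy receptors, Tnfrsf11b (osteoprotegerin), Tnfrsf22 and Tnfrsf23, and the related Tnfrsf26 were between -0.36 and 0.27, with none passing. Tnfrsf22, Tnfrsf23 and Tnfrsf26 are close copies of each other. Reads that fit more than 1 of them could be left out or assigned to another in counting, so their values are uncertain.

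Dp16 2xIFNRs and Dp16, which differ by the copy number of the interferon receptor cluster, were then compared directly. None of the 23 genes passed in edgeR, where 0.0171% of all genes did. None had an unadjusted p under 0.05, where 4.71% of all genes did, and DESeq2 called none. Log2 fold changes ran from -0.27 to 0.28 with a median of -0.03, beside 0.00 for all genes. Tnfsf10 had the smallest p, with 0.22 ± 0.11 (unadjusted p = 0.0600, edgeR adjusted p = 0.850), and all 6 Dp16 2xIFNRs libraries lay above the Dp16 median. The next were Tnfrsf10b at 0.27 ± 0.15, Tnfrsf22 at 0.23 ± 0.17 and Tnfrsf19 at 0.28 ± 0.22 (edgeR adjusted p of 0.850, 0.850 and 0.852). For Tnfrsf22 the lowest, median and highest levels were 1.52, 3.501 and 5.21 CPM in wild-type, 2.55, 2.88 and 4.55 CPM in Dp16, and 2.51, 3.66 and 4.79 CPM in Dp16 2xIFNRs. For Tnfrsf19 they were 1.23, 1.40 and 2.72 CPM in wild-type, 0.732, 1.13 and 1.71 CPM in Dp16, and 0.710, 1.52 and 1.96 CPM in Dp16 2xIFNRs. The libraries of all 3 groups overlapped for both genes. Tnfsf13b differed by 0.03 ± 0.15, Tnfrsf1b by 0.01 ± 0.12 and Tnfrsf21 by -0.10 ± 0.16. A p that misses the threshold does not show that the 2 groups are alike.

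Sex was compared over all 3 genotypes. Of the 23 genes, 9 differed between males and females (39.1%), beside 38.8% of all genes, so that the family stood near the background. Males had 2 genes higher (8.7%, beside 19.0% of all genes) and 7 lower (30.4%, beside 19.7%). Tnfsf12 had the smallest p. Wild-type females had 25.4, 26.6 and 28.2 CPM and wild-type males 12.1, 12.4 and 13.6 CPM. Dp16 females had 22.2, 25.2 and 29.3 CPM against 12.2, 13.9 and 14.6 CPM in males, and Dp16 2xIFNRs females 23.3, 23.8 and 28.2 CPM against 12.8, 12.98 and 14.1 CPM. Every female lay above every male in all 3 genotypes, and the log2 difference was -0.97 ± 0.06, male minus female (edgeR adjusted p = 1.96e-10). The overlap of Tnfsf12 with Tnfsfm13 given above applies to these values as well. How many of all genes had sexes that lay apart in this way was not counted, for Tnfsf12 or for the genes below.

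Tnfrsf11a, the receptor for RANKL, was higher in males. Wild-type females had 3.43, 3.47 and 4.03 CPM and wild-type males 4.89, 4.91 and 6.13 CPM. Dp16 females had 3.05, 3.67 and 4.37 CPM against 6.60, 6.90 and 8.02 CPM in males, and Dp16 2xIFNRs females 4.06, 4.61 and 4.71 CPM against 6.11, 6.42 and 8.93 CPM. Males and females did not overlap in any genotype, and the log2 difference was 0.73 ± 0.10 (edgeR adjusted p = 9.84e-06). Tnfsf10 was higher in males by 0.50 ± 0.09 over the 3 genotypes (edgeR adjusted p = 0.000230), which averages the unequal ratios given above. Tnfrsf1a was lower in males by a small amount, -0.29 ± 0.04 (edgeR adjusted p = 1.42e-05), with 69.0, 69.5 and 72.5 CPM in wild-type males against 82.3, 86.2 and 91.3 CPM in females. Dp16 males had 68.8, 75.7 and 80.4 CPM against 90.8, 92.1 and 97.5 CPM in females, and Dp16 2xIFNRs males 73.8, 76.1 and 77.3 CPM against 84.6, 89.6 and 93.5 CPM. Every male lay below every female of the same genotype.

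Tnfrsf1b was lower in males by 0.42 ± 0.10 on the log2 scale (edgeR adjusted p = 0.00182). Its wild-type males had 5.67, 5.71 and 7.01 CPM against 8.01, 8.48 and 11.8 CPM in females. Dp16 males had 8.36, 9.08 and 11.1 CPM against 10.8, 11.1 and 11.4 CPM, and Dp16 2xIFNRs males 8.25, 9.31 and 9.38 CPM against 9.69, 11.9 and 14.4 CPM. The sexes overlapped in Dp16 and lay apart in the other groups. Tnfrsf22 was lower in males by 0.59 ± 0.14 (edgeR adjusted p = 0.00239). Its wild-type males had 1.52, 2.23 and 3.56 CPM against 3.45, 3.66 and 5.21 CPM in females. Dp16 males had 2.55, 2.68 and 2.72 CPM against 3.04, 3.20 and 4.55 CPM, and Dp16 2xIFNRs males 2.51, 3.03 and 3.34 CPM against 3.98, 4.44 and 4.79 CPM. Here the sexes overlapped in wild-type and lay apart in the other groups. The other 3 lower in males were Tnfrsf26, Tnfsf13 and Tnfsf15. The plot of sex differences shows the 9 genes beside the 14 that did not pass.

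**Figure D4:**
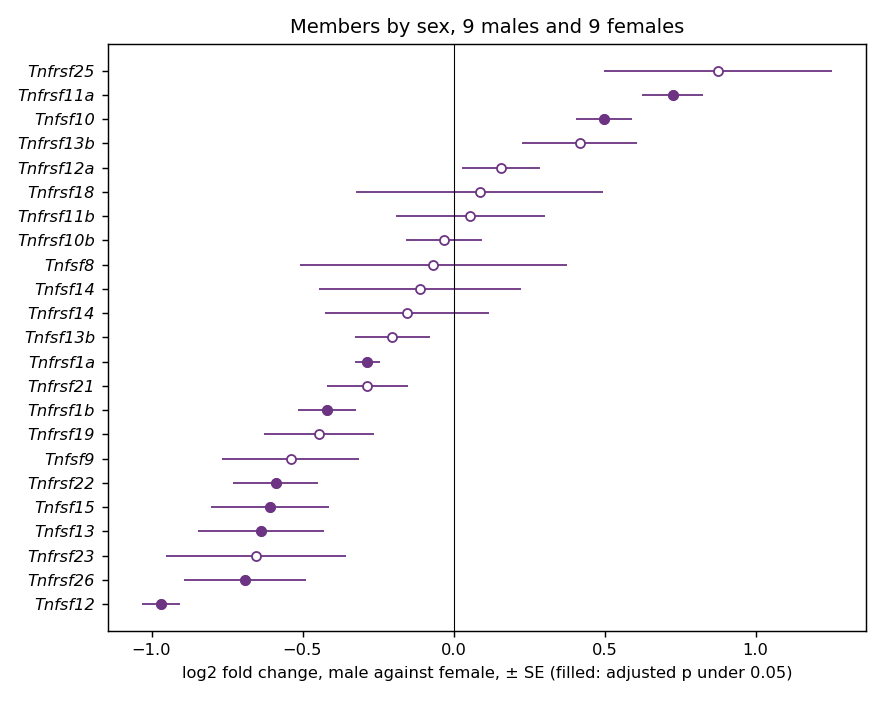
Log2 difference between males and females, with its SE, for the 23 tested genes over 9 males and 9 females, with filled points where the edgeR adjusted p was under 0.05. Tnfsf12 lies farthest to the left at -0.97, and of the 9 filled points only Tnfrsf11a at 0.73 and Tnfsf10 at 0.50 lie above 0.

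The genes around the family in its pathway were taken from lists of related genes. Of all genes tested, 3.17% were higher in each comparison with wild-type, and 1.06% were lower in Dp16 and 1.61% in Dp16 2xIFNRs. Their median log2 fold changes were -0.01 and 0.01. Of 7 ligands under other names, Ltb and Eda could be tested and neither passed. Tnf, the founding member, had at most 15 counts in any library and was not tested, like Lta, Fasl, Cd40lg and Cd70. All 8 receptors under other names (Fas, Cd40, Cd27, Ltbr, Ngfr, Edar, Eda2r and Relt) were tested and none passed, with median log2 fold changes of 0.32 in Dp16 and 0.15 in Dp16 2xIFNRs. None of 21 genes of TRAF proteins and death domain signalling passed, with medians of -0.01 and 0.01. Of 24 NF-kappaB subunits, kinases and inhibitors, none passed in Dp16 and 3 did in Dp16 2xIFNRs. Tnip1 and Tnfaip3, both inhibitors of NF-kappaB signalling, rose by 0.36 ± 0.07 and 0.42 ± 0.11 (edgeR adjusted p = 0.00747 and 0.0372). Chuk, the kinase IKK-alpha, fell by 0.26 ± 0.07 (edgeR adjusted p = 0.0480).

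Of 26 listed target genes of TNF and NF-kappaB, 20 were tested, and 2 rose in Dp16 and 4 in Dp16 2xIFNRs, with none falling. Lcn2, a secreted carrier protein made by injured tubules, had lowest, median and highest levels of 2.08, 2.82 and 3.31 CPM in wild-type. They were 3.83, 5.61 and 8.19 CPM in Dp16 and 4.35, 4.81 and 5.71 CPM in Dp16 2xIFNRs, so neither duplication group overlapped wild-type. Of all genes tested, 1.3% had no such overlap in Dp16 and 1.56% in Dp16 2xIFNRs. Lcn2 rose by 1.04 ± 0.15 in Dp16 and 0.84 ± 0.15 in Dp16 2xIFNRs on the log2 scale (edgeR adjusted p = 0.000377 and 0.00247). The chemokine Ccl5 rose by 0.87 ± 0.21 in Dp16 (edgeR adjusted p = 0.0235). Csf1, a growth factor of macrophages, and Icam1, an adhesion molecule, rose by 0.39 ± 0.10 and 0.32 ± 0.08 in Dp16 2xIFNRs (edgeR adjusted p = 0.0267 and 0.0291). The median of the list was 0.28 in Dp16 and 0.35 in Dp16 2xIFNRs. Of 7 genes listed for the shedding of ligands and receptors, Spp1 alone rose, by 0.43 ± 0.08 in Dp16 and 0.38 ± 0.08 in Dp16 2xIFNRs (edgeR adjusted p = 0.00316 and 0.00624). Spp1 encodes osteopontin, a secreted matrix protein and not a shedding enzyme. Lcn2 and Spp1 are also on the list of tubule injury markers given below and are counted there again.

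Tnfsf10 is known as a gene induced by interferon, so a list of 20 type I interferon response genes is given beside it. In Dp16, 7 of the 20 rose and none fell, with a median of 0.36. In Dp16 2xIFNRs, 4 rose and none fell, with a median of 0.30. Of all genes tested, 3.17% rose in each comparison, with medians of -0.01 and 0.01. Lgals3bp rose by 0.61 ± 0.10 and 0.59 ± 0.10 (edgeR adjusted p = 0.000891 and 0.00132), and Irf7, a regulator of interferon production, by 0.55 ± 0.11 and 0.40 ± 0.11 (edgeR adjusted p = 0.00577 and 0.0372). Mx2 rose by 1.49 ± 0.25 and 1.44 ± 0.25 (edgeR adjusted p = 0.00179 and 0.00212), and it lies in the duplicated segment. The levels of the list summed to 242 to 369 CPM in wild-type, 339 to 438 CPM in Dp16 and 327 to 390 CPM in Dp16 2xIFNRs. Tnfsf10 fell in groups where the listed genes that passed rose. Most of the 20 did not pass, and the part of interferon in the Tnfsf10 values was not tested. No gene of these 7 lists passed between Dp16 2xIFNRs and Dp16.

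**Figure D5:**
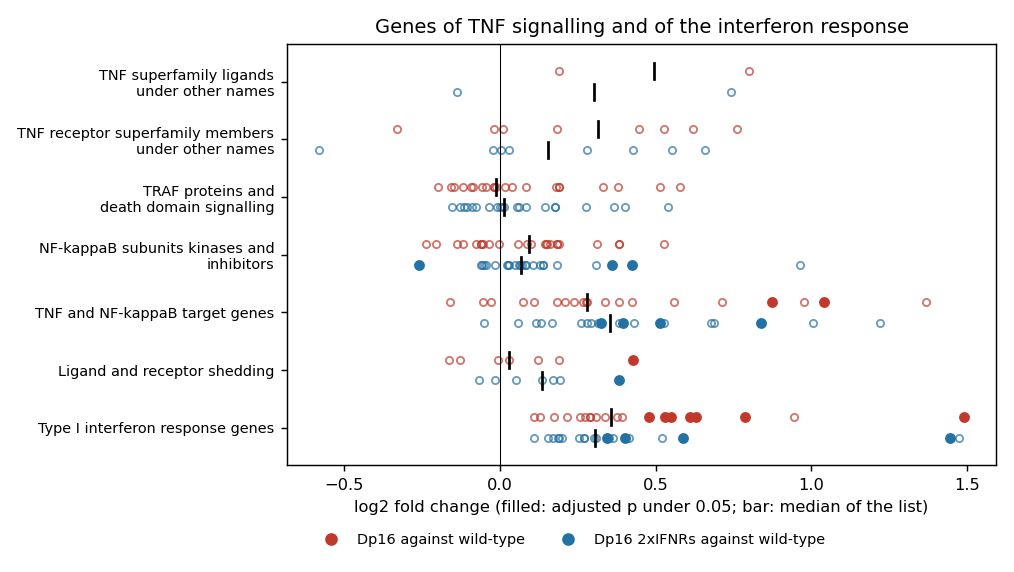
Log2 fold change against wild-type of each tested gene in 7 lists of related genes, with filled points where the edgeR adjusted p was under 0.05 and black bars at the list median. The interferon list lies above 0 in both comparisons, with medians of 0.36 and 0.30, and the TRAF and death domain list lies around 0, with medians of -0.01 and 0.01.

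Markers of some immune cells moved with the genotypes as well. The 15 macrophage markers summed to 242 to 327 CPM in wild-type (median 272), 348 to 407 in Dp16 (median 359) and 344 to 422 in Dp16 2xIFNRs (median 354), so that neither duplication group overlapped wild-type. Of these 15 genes, 9 rose in Dp16 and 10 in Dp16 2xIFNRs, with none falling and none at 0 throughout. Of all genes tested, 3.17% rose in each comparison. Lyz2, the lysozyme of myeloid cells, rose by 1.11 ± 0.13 and 1.02 ± 0.13 (edgeR adjusted p = 5.16e-05 and 0.000131). The 13 T cell markers summed to 9.74 to 15.1 CPM in wild-type, 16.3 to 27.9 in Dp16 and 14.1 to 19.8 in Dp16 2xIFNRs, and 5 and 2 of them rose. None of 7 tested B cell markers passed, and none of 7 tested natural killer and innate lymphoid cell markers did. Of 9 dendritic cell markers none passed in Dp16 and 3 rose in Dp16 2xIFNRs. Of 4 tested neutrophil markers 1 rose in each comparison. Of 8 plasma cell markers, 3 rose in Dp16 and 1 in Dp16 2xIFNRs. BAFF and TNFR2 are known products of myeloid cells and T cells, and the part of these cells in the values of Tnfsf13b and Tnfrsf1b was not tested. Endothelial markers, a cell type that also makes TNFR2, had none of 12 passing. Of 12 proximal tubule markers, Slc22a8 and Slc13a3 fell in both groups and Miox rose in Dp16, and of 10 markers of tubule injury 5 rose in Dp16 and 6 in Dp16 2xIFNRs. Their part in the values of Tnfsf10 and Tnfrsf21 was not tested.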

How the data were processed

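Strand-specific paired-end libraries of polyadenylated kidney RNA were made with a Tecan/Nugen kit and sequenced on a NovaSeq instrument, per the labels' protocols. The submitters' processing notes name HISAT2 2.1.0, HTSeq 0.6.1, SAMtools 1.5, FastQC 0.11.5, bcl2fastq and the mouse build GRCm38. Whether counting used strand is not given in the sources used here. The authors deposited raw counts per gene and RPKM values, and how the RPKM were made is not stated; counts and RPKM gave 1 gene length in all libraries within 0.1% for 13828 of 13828 genes checked. Counts of every pair of libraries differed beyond sampling noise (chi-square at least 23.6 times its degrees of freedom). The labels number the samples but do not say that each is a separate animal, so p values measure the spread between these samples.

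Counts were tested by edgeR's quasi-likelihood method (version 4.0.16, R 4.3.3). Genotype and sex were terms of 1 model over the 18 libraries, with TMM normalization and the edgeR filter (minimum count 10, minimum total 15), which kept 17575 genes and removed 37810. Tests were two-sided, with Benjamini-Hochberg adjustment over all genes and 0.05 as the threshold. The biological coefficient of variation was 16.8%. CPM are TMM-normalized counts per 1000000 counts, and the SE is the log2 fold change divided by the square root of F. Sex by genotype effects came from a fit with their product. The fits were also run on simulated counts with known genotype changes and no sex difference, and the outcome is not given here. Gene positions are those of GENCODE M21, which lists all 31 genes; promoters of 24 of them were found in RefSeq. Alternatives were DESeq2 1.42.0, limma 3.58.1 on log2(RPKM + 0.1), other filters, scalings and terms, and each library left out.

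CPM in every group were given for genes that passed in any comparison of genotypes, for Tnfsf10 and for the 4 smallest p values per comparison of genotypes, and by sex for the 6 smallest sex p values that passed. Levels were given as mean RPKM for the 4 highest and 4 lowest tested genes. Of each list, up to 3 genes that passed were named. Pictures were drawn with matplotlib 3.10.9. The members and lists were chosen with earlier results of these data known.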

Additional observations from a re-analysis of the deposited data

Results flagged for a closer look

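In 69 sets of 6 libraries (23 tested genes in 3 groups), 8 held a library that stood apart from the other 5 by Dixon's test at the 95% level, and chance gives about 1 in 20. Values are CPM. In wild-type, Tnfrsf18 was 0.607 in replicate 3 (next highest 0.190), Tnfrsf19 was 2.72 in replicate 5 (next 1.55) and Tnfsf14 was 0.524 in replicate 2 (next 0.258). Tnfsf8 was 0.206 in wild-type replicate 4 (next 0.0737) and Tnfsf9 was 1.07 in wild-type replicate 6 (next 0.564). Tnfrsf23 was lowest in wild-type replicate 1, at 0.259 (next lowest 0.975). In Dp16, Tnfrsf22 was 4.55 in replicate 4 (next 3.20) and Tnfrsf26 was 1.91 in replicate 3 (next 1.01). None of the 4 genes that passed between genotypes was among them. Wild-type replicate 5 also had the highest sum of adrenal gland markers, 81.5 CPM beside 10.1 CPM in the next library. Its part in the Tnfrsf19 value, and in the Tnfrsf1b value of that library, was not tested. Dp16 replicate 3 had the highest sums of dendritic cell (26.4 CPM, next 24.8), T cell (27.9, next 25.2), B cell (13.4, next 8.32), stroma (1269, next 1136) and fat markers (257, next 217), and of tubule injury markers; their part in the Tnfrsf26 value was not tested.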

How the results depend on the processing

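No direction of a gene that passed reversed under any alternative run; a change of sign where neither fit passed was counted as no change. In Dp16 against wild-type, where 3 family genes passed, 2 did without the sex term, 2 with age as a term, 1 with the 2 groups alone, 1 in males alone and 1 in females alone (the fits of 1 sex were chosen after seeing the data), and 2 to 3 with each library left out. In Dp16 2xIFNRs against wild-type, where 4 passed, 2 did without the sex term, 2 with age as a term, 1 in males alone, 0 in females alone and 2 to 4 with each library left out. Between Dp16 2xIFNRs and Dp16 the count was 0 in every alternative. For the related lists, 10 genes passed in Dp16, with 3 without the sex term, 19 with DESeq2, 6 with the 2 groups alone, 3 in males, 0 in females and 6 to 18 with each library left out (18 without wild-type replicate 5, 6 without Dp16 replicate 3). In Dp16 2xIFNRs 12 passed, with 4 without the sex term, 7 with age, 7 with the 2 groups alone, 2 in males, 0 in females and 5 to 13 with each library left out. The 9 sex differences became 14 with limma on log2(RPKM + 0.1), and 9 to 11 with each library left out. The counts over all 17575 genes moved too. For sex, limma on log2(RPKM + 0.1) gave 1928 genes higher in males and 5883 lower, beside 3347 and 3466 in the edgeR fit of all 18 libraries. In Dp16 against wild-type, DESeq2 gave 819 higher and 416 lower and females alone 30 and 3, beside 558 and 186. The sex by genotype count of 0 became 1 with no filter, 1 with DESeq2 and 0 to 1 with each library left out (Tnfsf10 each time). Fits of 1 sex hold fewer samples; for the other changes the cause was not tested. With sample number as a replicate block the counts were 3, 4 and 0 for the genotype comparisons and 8 for sex. The numbers were not taken as pairing the samples, since correlations of same-numbered libraries ran from -0.377 to 0.396 and 11 of 18 pairs were over 0.1. The labels also carry an unexplained number, with 12 values over the 18 libraries and some values shared across genotypes. With it as a random block (limma-voom, correlation 0.0778) the counts were 3, 4 and 0 for genotype and 10 for sex. For genes of few counts, such as Tnfsf8, the depth limits what could be detected.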
